A study of Mus musculus with 4 samples.

Results

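The cytochrome P450 genes of the mouse were examined in 2 resident liver stem cell (RLSC) lines and in MMH-D3, a line described as differentiated and hepatocytic. That name is used only as a label, because only some of the hepatocyte markers described below exceeded background in MMH-D3. Members were all genes whose only symbol in the array's annotation had the form Cyp, a family number, a subfamily letter and a gene number, which gave 70 of the 18193 genes with a named probe set and 93 of the 45101 probe sets. Signals came from 4 Affymetrix Mouse430_2 arrays, with 1 array for MetE14/3, 1 for WTE14/1 and 2 for MMH-D3. MetE14/3 (clone B2) is a line of liver cells from an embryo transgenic for cyto-Met, taken 14 days post coitum, so its cells carry a truncated form of the Met receptor. WTE14/1 is a line of liver cells from a wild-type embryo of that age, and its source name gives another line number than its title, which is used here. Both RLSC lines grew from colonies with palmate morphology, were expanded on collagen in medium with serum, and are single cultured lines. MMH-D3 is also a single established line, and nothing in the labels says that its arrays came from separate cultures. The p-values below therefore measure the spread between these arrays. Between the MMH-D3 arrays that spread may be technical. Between the RLSC arrays it also holds the differences of line and genotype, which cannot be told apart.

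Cytochrome P450 enzymes are haem proteins that insert an oxygen atom into their substrates. In mammals most take electrons from P450 oxidoreductase in the endoplasmic reticulum, and the mitochondrial ones from ferredoxin. The families named by the lowest numbers oxidise drugs, carcinogens and other foreign compounds, family 4 hydroxylates fatty acids and eicosanoids, and others make or break down sterols, bile acids, steroid hormones, vitamin D and retinoic acid. Adult hepatocytes are the richest source of many of them, and their levels are known to drop when hepatocytes are kept in culture.

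The signal of a gene is that of its probe set with the highest mean, as the authors deposited it. The arrays had been brought to a common level, with a mean of 200.001 on each once the 2% of probe sets at either end were set aside. Median signals were 19.6 in MetE14/3 and 27.98 in WTE14/1, against 16.9 and 23.04 on MMH-D3 arrays 1 and 2. Signals of different probe sets are not on a shared scale, so the genes are not ranked by amount. The arrays fell into pairs by their poly-A controls, which are RNAs added before labelling. The 27 probe sets for these controls had signals 10.4-fold higher (median) on MetE14/3 and MMH-D3 array 1 than on WTE14/1 and MMH-D3 array 2, while the median ratio was 0.878 over 18 probe sets for hybridization controls, which are added after labelling. Each pair held 1 array of each group, so differences are also given within the high poly-A pair (MetE14/3 minus MMH-D3 array 1) and within the low poly-A pair (WTE14/1 minus MMH-D3 array 2).

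Few P450 genes gave a signal above 50, the level used here as background. In MetE14/3 8 of the 70 members (11.4%) exceeded it, against 50.0% of all genes on that array. In WTE14/1 6 members (8.57%) did so, against 52.6% of all genes. On MMH-D3 array 1 8 members (11.4%) did so, against 48.5% of all genes, and on array 2 15 members (21.4%), against 51.3%. In all, 17 members (24.3%) exceeded 50 on at least 1 array, compared with 58.2% of all genes. The 4 members above 50 on all 4 arrays (5.71%, compared with 43.5% of all genes) were Cyp1b1, Cyp20a1, Cyp4f16 and Cyp2j6. Of the 70, 1 member (1.43%) exceeded 50 in RLSC alone, compared with 5.06% of all genes, and 9 (12.9%) in MMH-D3 alone, compared with 3.30%. A further 7 did so in both groups, compared with 49.8% of all genes. On MMH-D3 array 2 only, 7 members exceeded 50, compared with 1.85% of all genes.

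**Figure D1:**
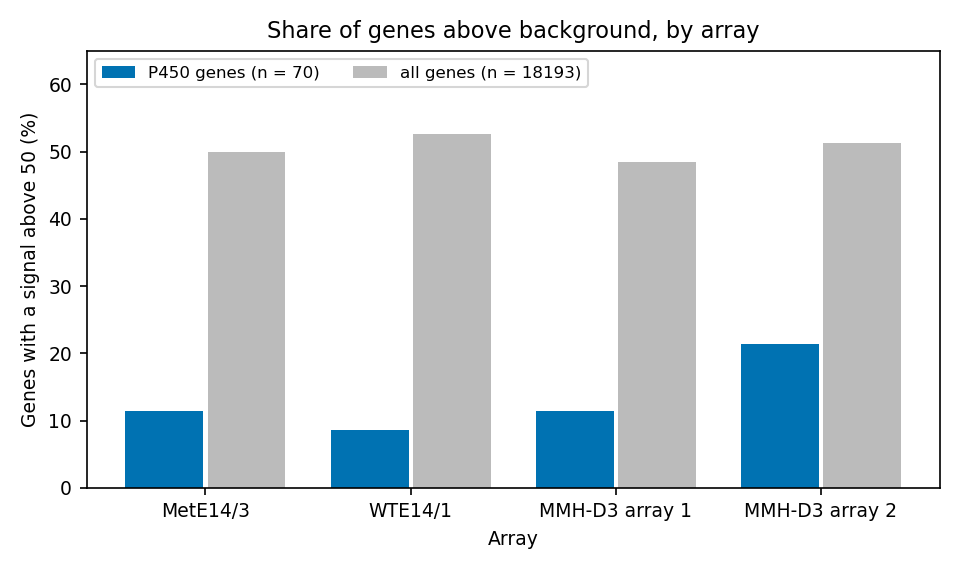
Share of genes with a signal above 50 (percent, y axis) on each array, for the 70 cytochrome P450 genes and for all 18193 genes. The P450 share lies between 8.57% and 21.4% on the 4 arrays, and the share of all genes between 48.5% and 52.6%.

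The remaining 53 members stayed at or below 50 on every array. Their highest signal was 43.1, for Cyp4b1, followed by 42.5 for Cyp2c54 and 37.2 for Cyp2d13. Cyp4b1, a family 4 enzyme best known from lung, had signals of similar size on all arrays, with 38.2 in MetE14/3 and 33.2 in WTE14/1, against 30.7 and 43.1 on MMH-D3 arrays 1 and 2. Just above the level lay Cyp21a1, with a highest signal of 50.5, and Cyp26b1, with 73.0. The median of the highest signals among the 53 was 16.9, and 198 of their 212 signals were under 25. They included enzymes that adult mouse liver is known for, such as Cyp1a2, Cyp2e1, Cyp3a11, Cyp2c29, Cyp7a1 and Cyp8b1, which were picked out after the values had been seen. Other genes known from liver, among them Cyp2b10 and Cyp27a1, were above 50 on 1 array. Cyp2e1, which oxidises ethanol, had 12.2 in MetE14/3 and 27.4 in WTE14/1, against 12.5 and 8.12 on MMH-D3 arrays 1 and 2. Cyp3a11, a main drug-metabolising enzyme of mouse liver, had 4.2 and 9.47 in these RLSC lines, against 5.7 and 1.25 on the MMH-D3 arrays. Both genes were therefore at background in the RLSC lines and in MMH-D3 alike.

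**Figure D2:**
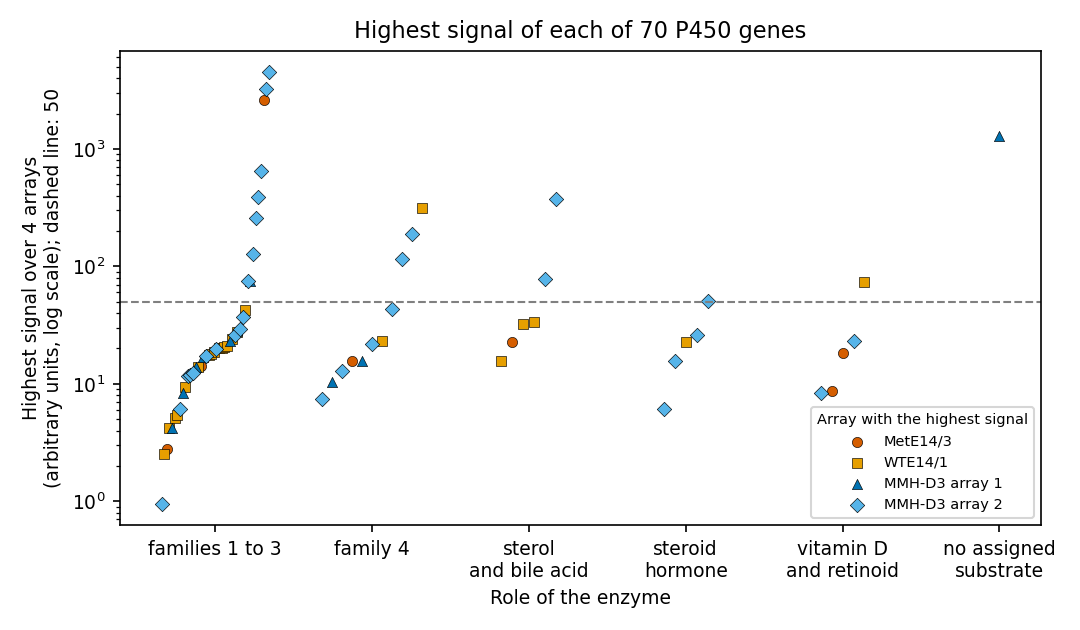
Highest signal of each of the 70 cytochrome P450 genes over the 4 arrays (y axis, arbitrary units, log scale), by the role of the enzyme, with 1 point per gene marked by the array that gave it and a dashed line at 50. Most points in every role with several genes lie below the line, and 9 of the 42 genes of families 1 to 3 lie above it. Cyp2r1, of family 2, is counted under vitamin D and retinoid.

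The sequence before the transcription start was available from RefSeq (GRCm38.p6) for 51 of the 70 members, in windows of 250 bases that end at the start of the gene's first listed transcript. P450 promoters had few CG dinucleotides. Their median was 2 CG per window, compared with 6 over 27025 genes, and 8 of the 51 (15.7%) held at least 10, compared with 38.2% of all windows. TATAAA on either strand was present in 19 member windows (37.3%), compared with 13.0% of all. The CG-rich windows included those of Cyp1b1, Cyp20a1 and Cyp2s1, the only windows with at least 10 CG among the 15 from genes that exceeded 50. Of the 36 windows from genes that did not, 5 had at least 10, namely those of Cyp26a1, Cyp2r1, Cyp46a1, Cyp4f39 and Cyp4v3. The 3 windows of genes above 50 are shown 5′ to 3′ on the gene's strand with each CG in capitals, because they hold 12, 15 and 15 CG. They lie at chr17:79715062-79715311 (minus strand, Cyp1b1), chr1:60343050-60343299 (plus strand, Cyp20a1) and chr7:25816526-25816775 (minus strand, Cyp2s1).
Cyp1b1: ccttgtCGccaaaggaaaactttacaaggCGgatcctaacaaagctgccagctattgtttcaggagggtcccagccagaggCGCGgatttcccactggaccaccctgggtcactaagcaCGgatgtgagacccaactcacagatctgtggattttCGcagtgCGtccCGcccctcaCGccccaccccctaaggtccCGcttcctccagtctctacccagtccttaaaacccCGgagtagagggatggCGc
Cyp20a1: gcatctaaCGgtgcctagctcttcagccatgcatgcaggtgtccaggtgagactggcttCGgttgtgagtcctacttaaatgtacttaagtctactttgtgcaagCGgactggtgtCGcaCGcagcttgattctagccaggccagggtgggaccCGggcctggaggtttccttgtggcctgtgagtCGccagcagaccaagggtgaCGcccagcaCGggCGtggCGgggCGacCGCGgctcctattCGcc
Cyp2s1: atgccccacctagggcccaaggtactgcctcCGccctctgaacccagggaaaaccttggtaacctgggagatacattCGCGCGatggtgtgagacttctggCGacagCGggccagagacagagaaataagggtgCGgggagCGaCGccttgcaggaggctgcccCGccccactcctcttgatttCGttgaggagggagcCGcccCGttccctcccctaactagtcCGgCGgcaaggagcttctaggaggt

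The letters CAAAGTCCA, a form of the site bound by Hnf4a and related nuclear receptors, were searched on both strands and were present in 6 member windows (11.8%), compared with 0.381% of all windows. These belonged to Cyp2c65, Cyp2c68, Cyp2c70, Cyp3a11, Cyp3a16 and Cyp8b1. Of the 6 genes, Cyp2c65 and Cyp2c68 exceeded 50 and the other 4 did not, so the letters occurred on both sides of the level. The letters GCGTG, the core of the site bound by the aryl hydrocarbon receptor, were present in 12 member windows (23.5%), compared with 28.2% of all windows. They stood in 7 of the 15 windows from members above 50 and in 5 of the other 36. A match is a stretch of letters and not a measured binding site. The windows of Cyp2c65 (chr19:39060756-39061005, plus strand) and Cyp2c68 (chr19:39741102-39741351, minus strand) are shown with CAAAGTCCA and TATAAA, or their reverse complements, in capitals. In the first, CAAAGTCCA starts 116 bases and TATAAA 162 bases before the transcription start. In the second, CAAAGTCCA starts 77 bases before it and TATAAA does not occur.
Cyp2c65: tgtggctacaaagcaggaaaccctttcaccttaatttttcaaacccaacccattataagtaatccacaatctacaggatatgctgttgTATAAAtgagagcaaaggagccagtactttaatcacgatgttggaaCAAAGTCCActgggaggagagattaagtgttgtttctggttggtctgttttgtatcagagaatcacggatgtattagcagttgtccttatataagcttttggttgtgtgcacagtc
Cyp2c68: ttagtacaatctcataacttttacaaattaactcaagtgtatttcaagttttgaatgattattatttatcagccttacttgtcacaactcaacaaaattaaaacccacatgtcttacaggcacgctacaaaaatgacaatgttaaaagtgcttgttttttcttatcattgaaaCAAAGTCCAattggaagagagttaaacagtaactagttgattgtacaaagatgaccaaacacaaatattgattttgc

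The next comparison asked how the P450 genes differed between RLSC and MMH-D3. Signals were quantile normalized and entered as log2(value + 4), and limma was fitted on the 12640 genes whose mean reached the 40th percentile of all probe sets. A difference is RLSC minus MMH-D3 on this scale, with its standard error (SE), and folds of low genes are understated by it. Of the 70 members, 32 passed this filter, 8 of them only through their signal on MMH-D3 array 2, 4 only through WTE14/1 and 2 only through MMH-D3 array 1. By limma with Benjamini-Hochberg adjustment over all genes at 0.05, 0 members were higher in RLSC and 0 lower, while 0.348% of all genes were higher and 0.467% lower, or 0.815% in either direction. At an unadjusted p under 0.05, 9 of the 32 differed, compared with 12.4% of all genes tested. Over all 70 members without the filter, 11 (15.7%) did, compared with 10.6% of all genes. With the array pair as a block the count after adjustment was again 0, compared with 1.48% of all genes. Of the 39 member probe sets tested by limma, 0 passed after adjustment, compared with 0.651% of all probe sets. At an unadjusted p under 0.05, 11 of the 39 did, compared with 10.9% of all probe sets. Without the MetE14/3 array, WTE14/1 is a lone RLSC array, so only differences are given. In that fit the difference was -7.17 for Cyp2s1 and -5.12 for Cyp3a13, compared with -5.42 and -3.77 over all 4 arrays. Over all 70 members without the filter, the arrays of the groups did not overlap for 17 members that were lower in RLSC (24.3%, compared with 20.6% of all genes) and for 9 that were higher (12.9%, compared with 19.0%). The median difference over all 70 members without the filter was -0.21, compared with 0.0085 for all genes. Over the 32 members that passed the filter, many of them through MMH-D3 array 2 alone, it was -0.32, compared with 0.04 for all genes tested, and it was 0.0091 without that array. In bulk samples, fewer cells of a type and less RNA per cell cannot be told apart.

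**Figure D3:**
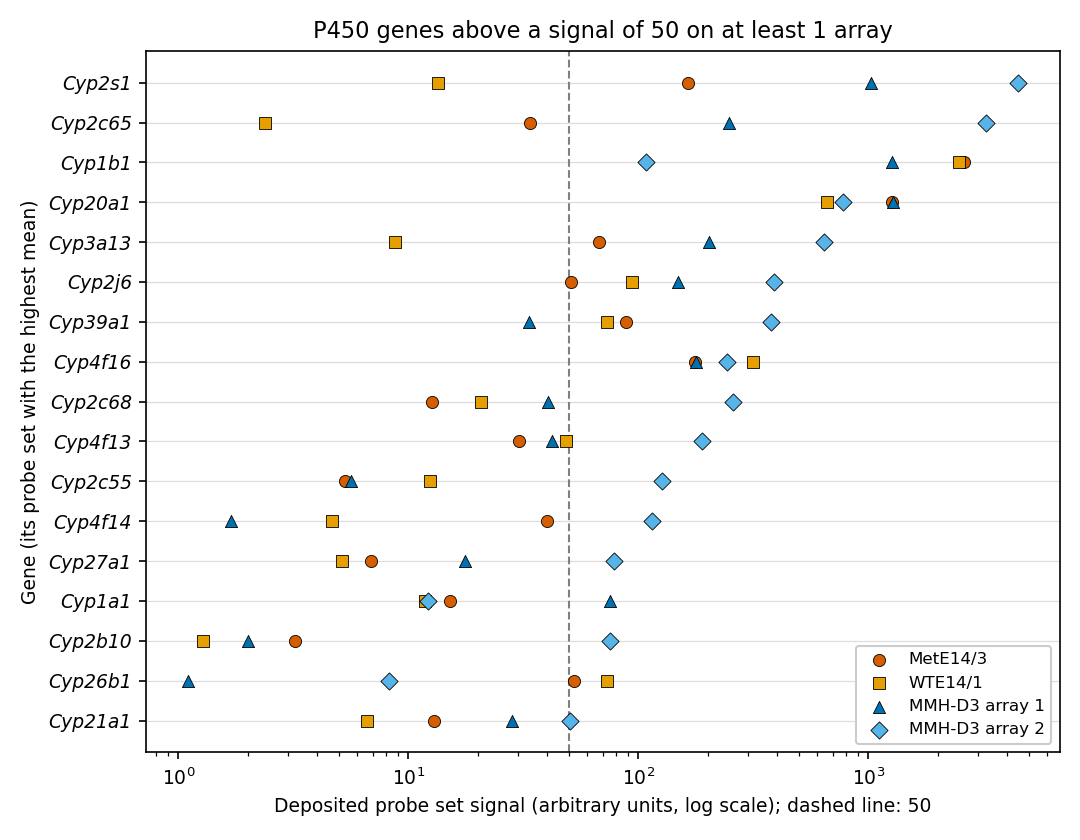
Deposited signals (x axis, arbitrary units, log scale, dashed line at 50) of the 17 cytochrome P450 genes that exceeded a signal of 50 on at least 1 array, with 1 point for each of the 4 arrays. Cyp1b1 and Cyp26b1 are higher on both RLSC arrays than on both MMH-D3 arrays, while Cyp2s1, Cyp2c65 and Cyp3a13 are lower on both.

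Among families 1 to 3, which oxidise foreign compounds, Cyp1b1 had the higher signals in RLSC. Cyp1b1 oxidises polycyclic hydrocarbons and oestrogens and is known mainly from tissues other than adult liver. It had 2597 in MetE14/3 and 2474 in WTE14/1, against 1272 and 108 on MMH-D3 arrays 1 and 2. The RLSC lines were close to each other and both exceeded both MMH-D3 arrays, which were 11.8-fold apart. The difference was 2.86 (SE 1.06, limma adjusted p = 0.347), and it was 1.11 in the high poly-A pair and 4.61 in the low poly-A pair. A second probe set followed the same order, with 1080 and 1061 in RLSC, against 496 and 34.7 in MMH-D3. The third probe set had 4.5 and 2.89 in RLSC, against 14.0 and 17.0 in MMH-D3, below 50 throughout and in the opposite direction.

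Cyp1a1, the enzyme most strongly induced through the aryl hydrocarbon receptor, had 15.2 in MetE14/3 and 11.8 in WTE14/1, against 75.6 and 12.1 on MMH-D3 arrays 1 and 2. It exceeded 50 only on MMH-D3 array 1, and the groups overlapped. The difference was -1.19 (SE 0.96, limma adjusted p = 0.728). Cyp1a2, its liver-restricted relative, was at 0.7 and 3.40 in RLSC, against 1.1 and 17.3 in MMH-D3, all at background.

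Cyp2s1, an enzyme of epithelia outside the liver, had 165 in MetE14/3 and 13.4 in WTE14/1, against 1032 and 4485 on MMH-D3 arrays 1 and 2. Both MMH-D3 arrays exceeded both RLSC lines. It averaged 89.2 ± 107 over the RLSC lines and 2758 ± 2442 over the MMH-D3 arrays (SD, n = 2 each), so the spread within each group was about as large as its mean. The difference was -5.42 (SE 1.25, limma adjusted p = 0.143), and it was -2.57 in the high poly-A pair and -8.27 in the low poly-A pair.

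The Cyp2c genes encode epoxygenases and hydroxylases of fatty acids and drugs. Of the 11 measured, 3 exceeded 50, all of them on MMH-D3 array 2. Cyp2c65, known from the mouse intestine, had 33.9 in MetE14/3 and 2.39 in WTE14/1, against 247 and 3232 on MMH-D3 arrays 1 and 2. The groups did not overlap, but the MMH-D3 arrays were 13.1-fold apart. The difference was -5.94 (SE 1.37, limma adjusted p = 0.142), with -2.76 in the high poly-A pair and -9.13 in the low poly-A pair. Its only probe set has the suffix that marks probes shared with other transcripts, so signal from related Cyp2c RNAs cannot be told apart from its own. Cyp2c68 had 12.7 and 20.7 in these RLSC lines, against 40.3 and 257 on the MMH-D3 arrays, and again did not overlap. The difference was -2.64 (SE 0.80, limma adjusted p = 0.242). Cyp2c55, an intestinal enzyme that hydroxylates fatty acids, had 5.3 and 12.4 in RLSC, against 5.6 and 127 in MMH-D3, so only MMH-D3 array 2 stood out. The liver genes Cyp2c29, Cyp2c37, Cyp2c50, Cyp2c54 and Cyp2c70 stayed under 50 on that array too.

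Cyp3a13, the member of the drug-oxidising Cyp3a subfamily that is also found in intestine, had 67.4 in MetE14/3 and 8.78 in WTE14/1, against 203 and 644 on MMH-D3 arrays 1 and 2. Both MMH-D3 arrays exceeded both RLSC lines. The difference was -3.77 (SE 0.98, limma adjusted p = 0.186), with -1.67 in the high poly-A pair and -5.87 in the low poly-A pair. The highest signal of the other Cyp3a genes was 11.9.

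Cyp2j6, of the Cyp2j subfamily, had 51.1 in MetE14/3 and 94.1 in WTE14/1, against 149 and 388 on MMH-D3 arrays 1 and 2, with no overlap. The difference was -1.89 (SE 0.57, limma adjusted p = 0.242) and varied little between the array pairs, at -1.62 in the high and -2.16 in the low poly-A pair. Its second probe set had the same order, with 11.6 and 22.4 in RLSC, against 30.6 and 183 in MMH-D3. Cyp2b10, which the nuclear receptor Car (Nr1i3) induces after phenobarbital, had 3.2 and 1.28 in RLSC, against 2.0 and 75.1 in MMH-D3. Only MMH-D3 array 2 exceeded 50, and its second probe set showed the same array at 50.3 with 3.0 to 8.56 elsewhere. The third probe set stayed under 50, with 0.3 and 20.4 in RLSC, against 6.1 and 26.4 in MMH-D3. The difference was -1.88 (SE 1.25, limma adjusted p = 0.652). The highest signal of the 8 Cyp2d genes, many of them drug oxidases of liver, was 37.2.

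Family 4, the fatty acid and eicosanoid hydroxylases, held 11 genes, of which 3 exceeded 50, all in the Cyp4f subfamily. Cyp4f16 had 177 in MetE14/3 and 315 in WTE14/1, against 178 and 244 on MMH-D3 arrays 1 and 2, so the groups overlapped. The difference was 0.09 (SE 0.47, limma adjusted p = 0.973). Its second probe set, of the kind that can bind other transcripts, had 98.0 and 107 in RLSC, against 71.9 and 94.4 in MMH-D3, where the groups did not overlap. Cyp4f13 had 30.3 and 48.6 in RLSC, against 42.3 and 189 in MMH-D3, with -1.39 (SE 0.67, limma adjusted p = 0.486). Cyp4f14, a leukotriene hydroxylase, had 40.1 in MetE14/3 and 4.67 in WTE14/1, against 1.7 and 114 on MMH-D3 arrays 1 and 2. Here the order of the groups turned round between the array pairs, with a difference of 2.89 in the high and -3.88 in the low poly-A pair.

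Of the 6 sterol and bile acid genes, Cyp39a1 and Cyp27a1 exceeded 50. Cyp39a1, which hydroxylates the brain oxysterol made by Cyp46a1, had 88.2 in MetE14/3 and 72.9 in WTE14/1, against 33.6 and 376 on MMH-D3 arrays 1 and 2. The RLSC lines lay between the MMH-D3 arrays, and the difference was 0.95 in the high and -2.50 in the low poly-A pair. Cyp27a1, the mitochondrial sterol hydroxylase that opens the alternative route to bile acids, had 6.9 and 5.13 in RLSC, against 17.7 and 78.3 in MMH-D3. The groups did not overlap, and the difference was -2.27 (SE 0.77, limma adjusted p = 0.297). Cyp7a1, the rate-limiting enzyme of bile acid synthesis, had 13.0 and 33.6 in RLSC, against 6.8 and 23.4 in MMH-D3, at background in both. Cyp51, the demethylase of cholesterol synthesis whose symbol falls outside the naming rule, had 550 and 401 in RLSC, against 818 and 3429 in MMH-D3, with -1.85 (SE 0.71, limma adjusted p = 0.362).

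Among the 5 vitamin D and retinoid genes, Cyp26b1 was the only one above 50 and the only member that exceeded 50 in RLSC alone. Cyp26b1 inactivates retinoic acid. It had 52.7 in MetE14/3 and 73.0 in WTE14/1, against 1.1 and 8.23 on MMH-D3 arrays 1 and 2. Both RLSC lines exceeded both MMH-D3 arrays by a wide margin on the log scale, but lay just above the background level. The difference was 2.96 (SE 0.68, limma adjusted p = 0.144), with 3.43 in the high and 2.49 in the low poly-A pair. Of the 5 steroid hormone genes, Cyp21a1, an adrenal hydroxylase, had 12.9 and 6.58 in RLSC, against 28.3 and 50.5 in MMH-D3. The groups did not overlap, and the difference was -1.83 (SE 0.66, limma adjusted p = 0.328). Its second probe set stayed between 16.5 and 21.6 on all arrays. Cyp20a1, an orphan member without an assigned substrate, had 1263 in MetE14/3 and 661 in WTE14/1, against 1284 and 779 on MMH-D3 arrays 1 and 2. Its signals followed the array pairs rather than the groups, with a difference of -0.09 (SE 0.47, limma adjusted p = 0.972). A second probe set kept that order, with 456 and 297 in RLSC, against 482 and 333 in MMH-D3, while the third had 38.6 and 32.0, against 37.3 and 55.5.

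**Figure D4:**
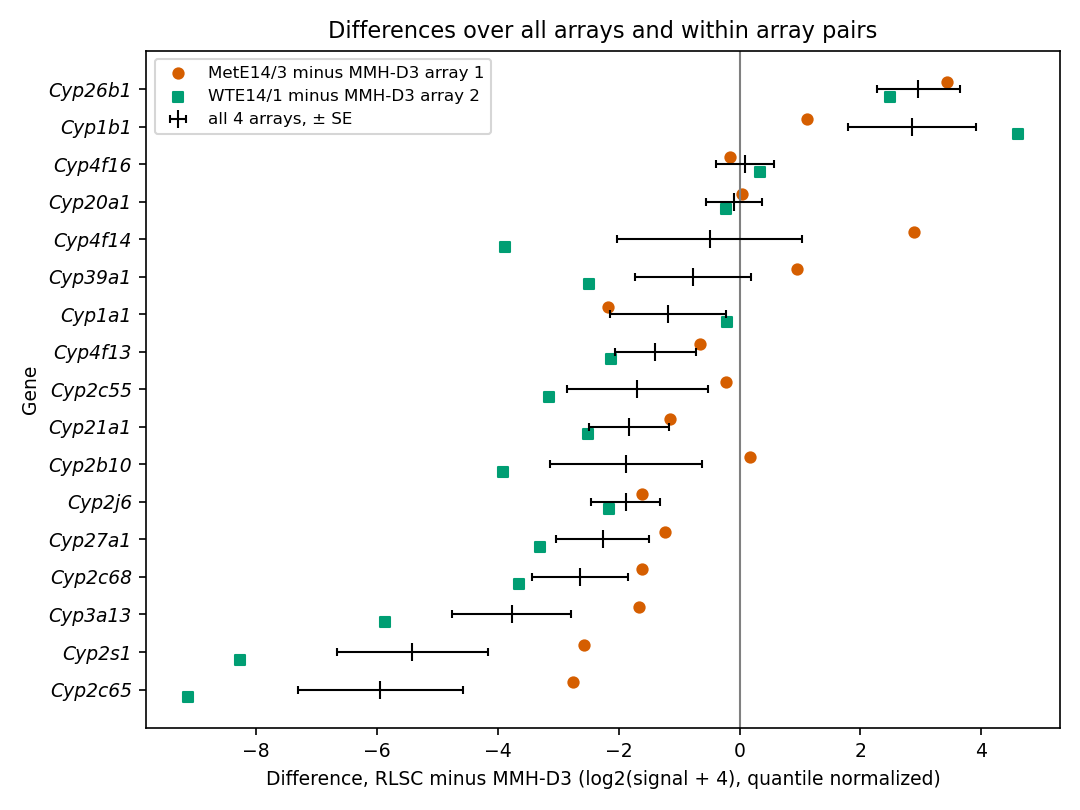
Difference of RLSC minus MMH-D3 on the log2(value + 4) scale for the 17 cytochrome P450 genes above 50 on at least 1 array, over all 4 arrays (bars, SE), within the high poly-A pair (MetE14/3 minus MMH-D3 array 1) and within the low poly-A pair (WTE14/1 minus MMH-D3 array 2). Cyp2s1 lies at -2.57 and -8.27, Cyp26b1 at 3.43 and 2.49, and Cyp4f14 and Cyp39a1 have opposite signs in the pairs.

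The spread within the groups was itself large for these genes. The RLSC lines differ in genotype and lie in different array pairs, so line, genotype and array pair cannot be told apart. Between the RLSC lines, with 1 array each and no test, 4 of the 32 members were at least 4-fold higher in MetE14/3 than in WTE14/1 (compared with 2.90% of all genes) and 0 were at least 4-fold lower (compared with 2.95%). The 4 were Cyp2c65, Cyp2s1, Cyp3a13 and Cyp4f14, and the first 3 were also lower in both RLSC lines than in MMH-D3. Without the filter the counts over all 70 members were 5 higher and 4 lower in MetE14/3, compared with 2.40% and 2.50% of all genes. The members added to these counts had failed the filter and were under 50 on every array. Between the MMH-D3 arrays, 2 members were at least 4-fold higher on array 1 (Cyp1a1 and Cyp1b1, compared with 3.15% of all genes) and 9 at least 4-fold lower (compared with 3.51%). These 9 were Cyp2b10, Cyp2c55, Cyp2c65, Cyp2c68, Cyp2d13, Cyp2s1, Cyp24a1, Cyp39a1 and Cyp4f14. Of these, Cyp2d13 (1.5 and 37.2 on arrays 1 and 2) and Cyp24a1 (1.8 and 23.3) were under 50 on both arrays. The second probe set of Cyp24a1 had the opposite order, with 9.8 and 1.14. Without the filter the same counts, 2 and 9, were found over all 70 members, compared with 2.99% and 3.24% of all genes.

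Most P450 genes lie in clusters of related genes, and in these data few members of most clusters exceeded 50, some of them neighbours. Counts are given by chromosome, which can hold members of several families. On chromosome 19, 13 members were measured, and Cyp2c55, its neighbour Cyp2c65, and Cyp2c68 exceeded 50 while the other Cyp2c genes did not. On chromosome 15, where the Cyp2d genes lie, 0 of 10 members exceeded 50. On chromosome 5 Cyp3a13 alone of 5 did so, and on chromosome 4 Cyp2j6 alone of 10. On chromosome 7 the neighbours Cyp2s1 and Cyp2b10 did so among 10. On chromosome 17, which holds most Cyp4f genes, 6 of 8 members did so. These were Cyp4f16, the neighbours Cyp4f14 and Cyp4f13, and Cyp21a1, Cyp39a1 and Cyp1b1, which belong to other families.

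**Figure D5:**
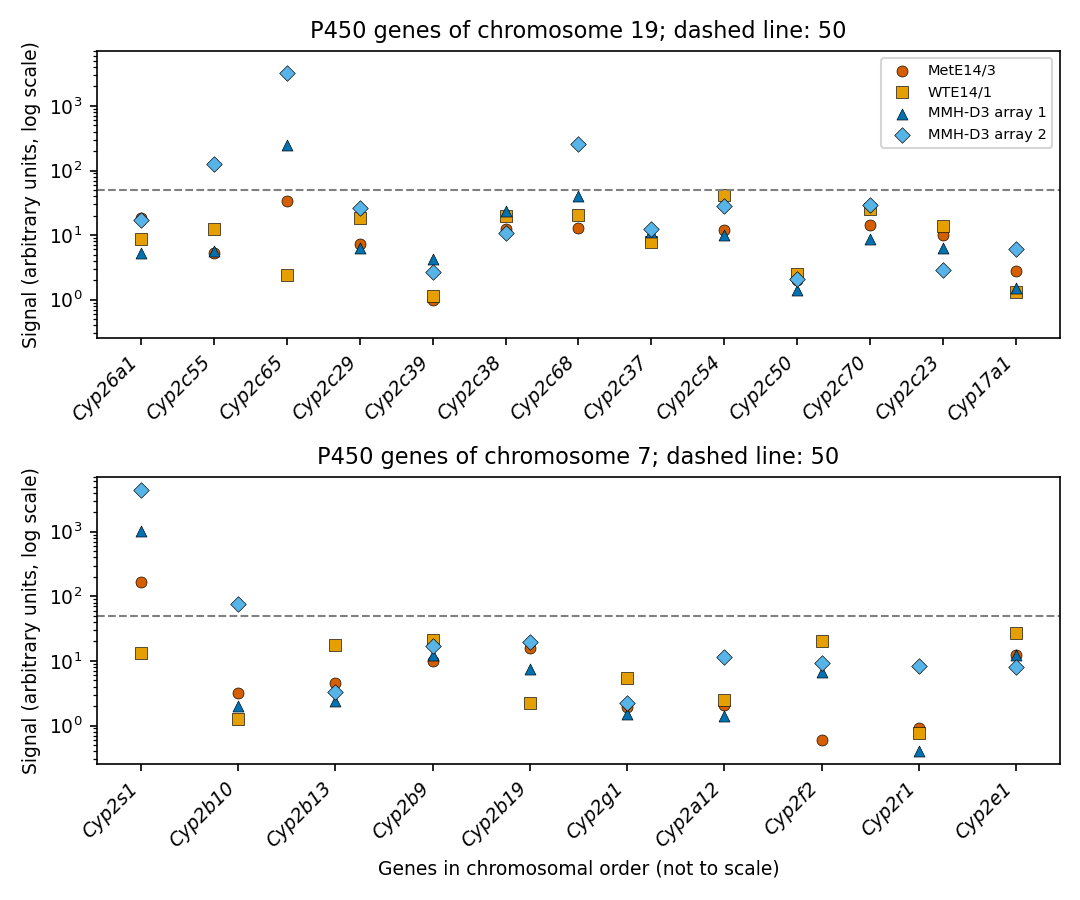
Deposited signals (y axis, arbitrary units, log scale, dashed line at 50) of the cytochrome P450 genes on chromosomes 19 and 7, in their order along the chromosome and not to scale, with 1 point for each of the 4 arrays. Among the 13 members on chromosome 19 only Cyp2c55, Cyp2c65 and Cyp2c68 reach above the line, and among the 10 on chromosome 7 only Cyp2s1 and Cyp2b10.

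The partners of P450 enzymes were measured on the same arrays. Of 9 electron transfer partners, 8 exceeded 50 on all 4 arrays, compared with 43.5% of all genes. Among the 8 tested, 0 were higher in RLSC and 1 was lower, compared with 0.348% and 0.467% of all genes. Their median difference was -0.36, compared with 0.04 for all genes. The lower one was Cyb5a, cytochrome b5, which hands electrons to several P450 enzymes. It had 1815 in MetE14/3 and 1687 in WTE14/1, against 6321 and 8360 on MMH-D3 arrays 1 and 2, with a difference of -1.97 (SE 0.27, limma adjusted p = 0.0451). P450 oxidoreductase, Por, was not analysed here. Of 12 genes of haem synthesis and breakdown, 10 exceeded 50 on all 4 arrays, compared with 43.5% of all genes. Of these 12, 11 were tested and 0 passed in either direction, with a median of -0.15. Alad, an enzyme of haem synthesis, had 1577 and 813 in RLSC, against 3475 and 2933 in MMH-D3, with a difference of -1.44 (SE 0.39, limma adjusted p = 0.205). The haem oxygenase Hmox2 had 899 and 757 in RLSC, against 934 and 672 in MMH-D3, so the groups overlapped. Fech, which makes haem by inserting iron into protoporphyrin, had 657 and 714 in RLSC, against 1083 and 785 in MMH-D3.

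Of 23 regulators of P450 genes, 18 were tested and 0 passed in either direction, with a median of -0.83. Some of the 18, such as Nr1i2 and Ahrr, passed the filter only through a single MMH-D3 array. Hnf4a, a nuclear receptor that drives hepatocyte genes, had 205 in MetE14/3 and 6.76 in WTE14/1, against 1049 and 1687 on MMH-D3 arrays 1 and 2, and did not overlap between the groups. The difference was -4.90 (SE 1.36, limma adjusted p = 0.209). Ahr, the aryl hydrocarbon receptor, had 1697 in MetE14/3 and 227 in WTE14/1, against 1161 and 858 on the MMH-D3 arrays, so the RLSC lines lay on either side of MMH-D3. Nfe2l2, the oxidative stress factor Nrf2, had 1720 and 1446 in RLSC, against 3845 and 4295 in MMH-D3, with -1.31 (SE 0.29, limma adjusted p = 0.133). Foxa2, a pioneer factor of liver genes, had 206 and 630 in RLSC, against 1354 and 1253 in MMH-D3, with -1.81 (SE 0.59, limma adjusted p = 0.278). The xenobiotic receptors Pxr (Nr1i2) and Car (Nr1i3) were low. Nr1i2 exceeded 50 only on MMH-D3 array 2, with 7.7 and 15.3 in RLSC, against 11.7 and 76.0 in MMH-D3. Nr1i3 had 10.6 and 10.2 in RLSC, against 1.0 and 1.71 in MMH-D3. Of 5 other targets of the aryl hydrocarbon receptor, all tested, 0 passed, with a median of -1.99. That median is the value of Ahrr, which passed the filter only through MMH-D3 array 1. Ahrr had 0.3 and 5.48 in RLSC, against 59.8 and 3.33 in MMH-D3. Among these targets the aldehyde dehydrogenase Aldh3a1 had 310 and 29.3 in RLSC, against 735 and 1183 in MMH-D3. Tiparp, a repressor of the receptor, had 282 and 206 in RLSC, against 480 and 270 in MMH-D3, and overlapped. The quinone reductase Nqo1 had 21.2 and 26.6 in RLSC, against 109 and 124 in MMH-D3.

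Enzymes that act beside P450s were also counted. Of 35 conjugating and hydrolysing enzymes, 21 were tested and 0 passed, with a median of -1.32. Some of the 21 passed the filter only through MMH-D3 array 2. An example is Ces2a, with 0.6 and 2.17 in RLSC, against 3.1 and 1019 in MMH-D3. Medians over tested genes are therefore drawn toward the group where such genes are high. The epoxide hydrolase Ephx1, which had the highest mean signal of the list, had 2717 and 2004 in RLSC, against 2673 and 3248 in MMH-D3, with a difference of -0.25 and overlapping groups. The glucuronosyltransferase Ugt2b34 had 66.3 and 2.04 in RLSC, against 995 and 6018 in MMH-D3, and the sulfotransferase Sult1c2 had 15.2 and 13.3, against 282 and 2886. With the array pair as a block, Sult1c2 passed as lower in RLSC, with a limma adjusted p of 0.0438. In that fit 1.48% of all genes passed. Ugt2b34 and Sult1c2 had their highest signal on MMH-D3 array 2, as Cyp2s1 and Cyp2c65 did. Of 14 bile acid enzymes and carriers other than P450s, 5 were tested and 0 passed, with a median of -0.71. The peroxisomal Scp2 had 729 and 860 in RLSC, against 888 and 1462 in MMH-D3, and Hsd17b4 had 909 and 598, against 794 and 904, while Acox2 had 45.2 and 18.0, against 43.0 and 1025. Of 12 retinoid handling genes, 7 were tested and 1 was lower in RLSC, compared with 0.467% of all genes. It was the retinol carrier Rbp4, with -6.06 (SE 0.87, limma adjusted p = 0.0478). The median of the 7 was -1.98. With the array pair as a block, where 1.48% of all genes passed, Aldh1a7, an aldehyde dehydrogenase, also passed as lower. Its difference was -2.83, with a limma adjusted p of 0.0417. Of 8 steroidogenic markers, 3 were tested, 0 passed, and 0 had a signal above 50 on any array, compared with 58.2% of all genes.

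Some cell type markers differed between the groups, beside 0.348% of all genes that were higher in RLSC and 0.467% that were lower. Among endothelial, macrophage and blood, and erythroid markers, 0 passed in either direction. Of 9 hepatocyte markers, 6 were tested and 1 (Apob) was lower in RLSC, and their summed signal was 133 in MetE14/3 and 112 in WTE14/1, against 2997 and 7307 on MMH-D3 arrays 1 and 2. Apob alone gave 77.4 and 13.0 of these sums in RLSC, against 2879 and 4647 in MMH-D3, while Ahsg, Cps1, Tat, Pck1 and Tdo2 were under 50 on every array. Albumin (Alb), which defines hepatocytes, had 1.7 and 2.91 in RLSC, against 44.7 and 440 in MMH-D3, so it was at background on MMH-D3 array 1 as well. Of 6 stellate cell and fibroblast markers, 4 were tested and 1 (Acta2) was higher in RLSC, with sums of 1910 and 9226 in RLSC, against 70.6 and 105 in MMH-D3. Acta2 alone gave 1638 and 8962 of the RLSC sums. Pdgfrb had 248 and 65.8 in RLSC, against 0.2 and 1.19 in MMH-D3, and Col3a1 overlapped. Des, Lrat and Col1a1 were under 50 on every array, and Des had 7.4 and 19.6 in RLSC, against 11.5 and 37.7 in MMH-D3. Of 5 mesothelial markers, 4 were tested and 2 (Upk1b and Wt1) were lower in RLSC, with sums of 2986 and 2145 in RLSC, against 12570 and 19970 in MMH-D3. Of 2 fetal hepatoblast markers, 1 was tested and it, Afp, was lower in RLSC. Sums over 3 cholangiocyte markers were 9033 and 4155 in RLSC, against 13280 and 15900 in MMH-D3, and 0 of them passed. Most of these sums came from Krt19 and Krt7, while Sox9 had 277 and 183 in RLSC, against 38.3 and 1.33 in MMH-D3, the opposite order with no overlap. Endothelial and erythroid markers stayed at or under 50 on every array, and sums over 5 macrophage and blood markers were 103 and 149 in RLSC, against 110 and 154 in MMH-D3. The part of these cell type differences and of the array pairs in the P450 values was not tested.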

How the data were processed

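RNA of 4 cultured cell samples (2 RLSC lines with 1 array each, and MMH-D3 with 2 arrays) was measured on Affymetrix arrays. The authors deposited 1 linear intensity per probe set and array, made with the array software GCOS, per the submitters' processing notes. Neither its version nor its settings is given in the sources used here. Names came from the platform annotation, in which 34945 probe sets had 1 symbol, 932 several and 9160 none, and the 64 control probe sets were left out. All 70 members matched RefSeq (GRCm38.p6) by Entrez identifier.

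Medians spanned 0.728 on the log2 scale, so signals were quantile normalized. A pseudocount of 4, the 20th percentile of all values after rounding, was added before taking log2. Probe sets with a mean under 13.8 were left out. Groups were compared by limma 3.58.1 in R 4.3.3 (lmFit, eBayes with an intensity trend, two-sided, Benjamini-Hochberg at 0.05, 2 residual and 4.14 prior degrees of freedom), and the fit was tested on simulated data. The number of arrays limits the precision. Alternatives changed the pseudocount, normalization, filter, trend, probe set choice, signal level, array pair block and arrays included. Every member above 50 on at least 1 array was named, and other lists were given by their passing members or, where none passed, by up to 3 with the highest mean, with Cyp51, Ahr, Hnf4a, Nr1i2, Nr1i3 and Alb always given. Krt19, Krt7, Sox9, Aldh1a7, and the hepatocyte markers at background were added after their values were seen. So were the stellate cell and fibroblast markers other than Acta2. Members and lists were chosen with earlier results of these data known.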

Additional observations from a re-analysis of the deposited data

How the results depend on the processing

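Over all alternatives tried, 65 of the values that answer a comparison stayed within their limits and 22 moved. The number of all genes that passed limma, 103, was 9 with no filter, 187 with the array pair as a block, 24 without the intensity trend and 0 to 220 when 1 array was left out. For P450 genes the count was 0 to 2 on leaving out 1 array (2 without MetE14/3) and 0 otherwise. Their median difference, -0.32, was -1.64 with a filter at the 60th percentile and -0.44 to 0.0091 when 1 array was left out. A lone array is then assumed to vary like the other group. Members above the level numbered 4 at 100 and 2 at 200 in MetE14/3; 13 at 25, 3 at 100 and 3 at 200 in WTE14/1; 13 at 25 and 5 at 200 on MMH-D3 array 1; and 8 at 200 on array 2. Members at least 4-fold apart between the RLSC lines, 4, were 1 with a pseudocount of 16 and 9 with no filter. Between the MMH-D3 arrays, 11 became 7 with a pseudocount of 16 and 20 at 2-fold.

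Of the single-gene values, 232 kept their direction and side, 2 newly passed and 14 changed direction. Without WTE14/1, Cyp20a1, Cyp4f14 and Cyp4f16 turned. Without MMH-D3 array 1, Cyp20a1, Cyp4f16 and Cyp1a1 did, and without MMH-D3 array 2, Cyp4f14, Cyp2c55 and Cyp39a1. When 1 array was left out, the ranges were -0.55 to 0.36 for Cyp20a1, -2.59 to 1.60 for Cyp4f14, -0.29 to 0.47 for Cyp4f16, -2.50 to 0.13 for Cyp1a1, -3.42 to 0.044 for Cyp2c55 and -2.26 to 0.71 for Cyp39a1. In the high poly-A pair Cyp20a1 was 0.035, Cyp4f14 2.89, Cyp4f16 -0.16, Cyp39a1 0.95 and Cyp2b10 0.17. The cause of these changes was not tested.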
